A study of Mus musculus with 6 samples.

Results

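The genes described here encode 10 intermediate filament proteins, out of 52636 genes in the count table of the mouse vestibular epithelium, and they were picked by symbol. They were the simple epithelial keratins Krt7, Krt8, Krt18 and Krt19, the keratins Krt5 and Krt15 of basal and stratified epithelia, and the filament genes Vim, Gfap, Nes and Des of mesenchymal, glial, progenitor and muscle cells. All 10 symbols were found once each. RNA-seq was performed on 3 Control animals, which drank plain water, and 3 animals given 30 mM of 3,3'-iminodipropionitrile (IDPN), a nitrile toxic to the sensory hair cells (HCs), in drinking water for 8 weeks. All were male 129S1/SvImJ mice, 2 to 4 months old, and each library held the 2 utricles and 6 cristae of 1 animal. The comparison asks how gene expression in this epithelium differs after chronic ototoxic exposure. All Control animals carry 1 code stem in their titles and the IDPN animals carry others, so treatment and whatever the stem stands for cannot be told apart.

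Intermediate filaments are rope-like polymers that give cells mechanical strength and anchor at desmosomes and hemidesmosomes. Keratins assemble only as pairs of a type II chain (here Krt5, Krt7 and Krt8) with a type I chain (here Krt15, Krt18 and Krt19), and Krt8 with Krt18 is the founding pair of simple epithelia. Vimentin, Gfap and desmin are type III proteins that can polymerize on their own, and nestin is a large type IV protein that joins vimentin filaments. In the inner ear, simple epithelial keratins and vimentin are known from supporting cells, which surround the HCs and close the epithelium when an HC is lost. In tissue-level RNA, a change in the number of cells of a type and a change in RNA per cell cannot be told apart.

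Krt8 and Krt18 encode partners of opposite types, and both were far higher in IDPN 2 than in every other library. Krt5 and Krt7 lie in the same keratin cluster of chromosome 15. The promoters of Krt8, Krt18, Krt7 and Krt5 are shown for these reasons, from 250 bases before to 50 bases after the start. RefSeq on GRCm38.p6 gave such windows for 8 of the 10 genes (not Krt15 and Krt19). Each sequence runs 5′ to 3′ on the strand of its gene, and capitals mark the TATA box letters TATAAA and the GC box letters GGGCGG, read on both strands, with overlapping matches merged.
Krt8, chr15:102004293-102004592, minus strand: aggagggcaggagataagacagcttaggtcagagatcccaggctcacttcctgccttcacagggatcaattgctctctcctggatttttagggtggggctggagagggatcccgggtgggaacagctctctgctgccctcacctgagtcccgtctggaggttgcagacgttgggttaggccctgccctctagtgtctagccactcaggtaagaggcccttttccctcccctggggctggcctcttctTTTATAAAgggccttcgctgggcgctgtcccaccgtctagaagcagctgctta
Krt18, chr15:102027966-102028265, plus strand: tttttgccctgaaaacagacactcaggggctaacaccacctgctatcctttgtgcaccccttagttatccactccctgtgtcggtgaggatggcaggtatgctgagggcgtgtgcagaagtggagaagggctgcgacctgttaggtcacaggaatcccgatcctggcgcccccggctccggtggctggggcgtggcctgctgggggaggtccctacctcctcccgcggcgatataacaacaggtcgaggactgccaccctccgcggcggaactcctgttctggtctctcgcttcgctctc
Krt7, chr15:101412153-101412452, plus strand: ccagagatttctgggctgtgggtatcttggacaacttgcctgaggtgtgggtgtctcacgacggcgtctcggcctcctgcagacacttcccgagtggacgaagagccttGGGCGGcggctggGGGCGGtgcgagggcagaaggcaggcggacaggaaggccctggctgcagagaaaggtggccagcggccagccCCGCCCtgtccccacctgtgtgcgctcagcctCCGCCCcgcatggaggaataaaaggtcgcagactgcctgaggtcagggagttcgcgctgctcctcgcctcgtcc
Krt5, chr15:101712856-101713155, minus strand: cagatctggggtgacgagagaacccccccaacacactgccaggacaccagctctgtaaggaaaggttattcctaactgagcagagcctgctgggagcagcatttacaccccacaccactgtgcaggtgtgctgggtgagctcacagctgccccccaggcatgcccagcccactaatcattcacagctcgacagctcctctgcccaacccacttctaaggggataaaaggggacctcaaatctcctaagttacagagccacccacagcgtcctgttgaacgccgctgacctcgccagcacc
The Krt8 window held TATAAA, the Krt7 window held GGGCGG, and the Krt18 and Krt5 windows held neither. TATAAA was present in 13.6% and GGGCGG in 35.7% of the 32851 promoter windows of this length. TGANTCA (AP-1 site), TGACGTCA (cAMP response element) and TGATGNAA (C/EBP-ATF site) were not found in any of the 8 windows, and 7.81%, 1.79% and 3.97% of all windows held them. These letter matches describe the windows only.

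Total estimated counts per library ranged from 40474847 to 43566332 and overlapped between groups (p = 0.50 in a two-sided exact permutation test, where 3 against 3 libraries cannot go below 0.10). Values below are counts normalized by DESeq2 size factors, and called means a DESeq2 Padj below 0.05 with a fold change above 1.5. In all, 2.32% of the 17650 genes with a Padj were called higher after IDPN and 3.42% lower. Of the 11770 genes with a mean of at least 100, 133 were at least 2-fold higher in IDPN 2 than in every other library, against 0 to 17 in the other 5. Control 1 had 116 genes at or below 50% of every other library, against 4 to 36 elsewhere, among them Vmo1 at 0 against at least 408. Of 18 immediate early and stress response genes, listed after their values were seen, 16 were at least 2-fold above every other library in IDPN 2. Egr1, a growth factor-induced transcription factor, had 220092 there against at most 541 in the others. The other two, the heat shock genes Hspa1a and Hspa1b, were highest in Control 3. For the members, estimates, levels and ratios that rest on IDPN 2 or Control 1 are given with and without it.

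Among the 6 keratins of the set, Krt19 was the only gene called, and it was higher after IDPN. Krt8 and Krt18 were many times higher in 1 treated animal, IDPN 2, and within the Control range or close to it in the others. Krt5 was also highest in IDPN 2, Krt7 lay within an overlapping range, and Krt15 was not detectable. Among the other filament genes, Vim was slightly lower and Des slightly higher in every IDPN library without passing the test, and Gfap and Nes overlapped between groups. The plot of all members by library shows these patterns.

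**Figure D1:**
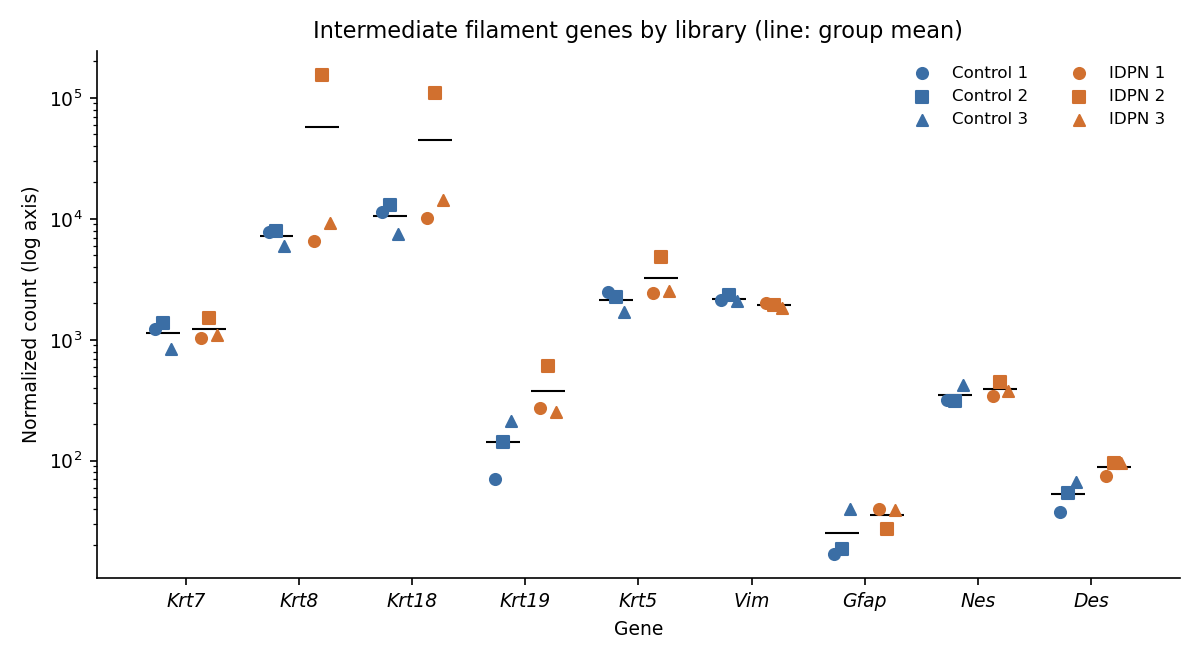
Normalized counts (log axis) of the 9 genes with a mean of at least 10, for each of the 3 Control (blue) and 3 IDPN (orange) libraries, with a line at each group mean. IDPN 2 stood far above the other libraries for Krt8 and Krt18, and the groups were apart for Krt19, Vim and Des.

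Krt8, the type II chain of the simple epithelial pair, lies on the minus strand of chromosome 15 (GRCm38, 101996698 to 102004482). It had 7823, 7873 and 5964 normalized counts in the Control animals (1, 2 and 3 in order) and 6604, 155447 and 9308 in the IDPN animals. IDPN 2 was 16.7-fold above the next highest library, and IDPN 1 was inside the Control range. In IDPN 2 the gene took 0.355% of all counts and ranked 29 by count, while in the other libraries it took 0.0153 to 0.0246% and ranked 456 to 732. The log2-Fold_Change was 2.98 (SE 1.25), and DESeq2 gave no p-value because its Cook's distance filter, which flags counts that a single library drives, removed the gene. Switching the filter off gave a DESeq2 Padj of 0.154, and edgeR gave an adjusted p of 0.155. Without IDPN 2 it fell to 0.14 on the log2 scale (SE 0.21, DESeq2 Padj = 0.863).

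Krt18, the type I partner, lies on the plus strand 23698 bases from Krt8 (GRCm38, chromosome 15, 102028180 to 102032027). Its normalized counts were 11441, 13000 and 7461 in Control and 10227, 109829 and 14228 in IDPN. IDPN 2 was again far apart, 7.72-fold above the next highest library, and IDPN 3 was slightly above every Control animal. The log2-Fold_Change of 2.07 (SE 1.07) likewise had no p-value in DESeq2. The Padj was 0.302 with the filter off, edgeR gave an adjusted p of 0.189, and without IDPN 2 it was 0.20 (SE 0.24, DESeq2 Padj = 0.807).

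The rise in IDPN 2 was unequal between the partners. Per kilobase of exon, the ratio of Krt8 to Krt18 was 0.502, 0.445 and 0.587 in Control, 0.474 in IDPN 1 and 0.480 in IDPN 3, but 1.04 in IDPN 2. Krt18 was thus the more abundant partner in 5 of the 6 libraries, and in IDPN 2 the levels were nearly equal. Between groups the ratio differed by 0.28 on the log2 scale (Control −0.98 ± 0.20, IDPN −0.69 ± 0.65, SD, n = 3; exact permutation p = 0.70, adjusted p = 0.70 over the 6 levels and ratios compared), and by −0.090 without IDPN 2. A processed copy, Krt8-ps, matches Krt8 at 98.6% identity over 941 bases, and how RSEM divided reads of the pair is uncertain. It had 9 to 24 counts in 5 libraries and 300 in IDPN 2. Adding these reads left the log2 difference in the ratio at 0.28. Gm5200, a copy 90.5% identical to Krt18 over 1267 bases, had at most 2 counts.

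The genes next to this pair did not share the pattern. Within 100000 bases on either side, 3 other genes had a mean of at least 100, namely Eif4b, Tns2 and Spryd3, and IDPN 2 was between 0.739 and 1.36 times the next highest library for them. The nearby keratins Krt4, Krt78 and Krt79 had at most 2.80 normalized counts in any library. Among all 11770 genes ordered by how far IDPN 2 stood above the next library, Krt8 ranked 15, Krt18 27, Krt19 103, Krt5 148, Krt7 1278 and Nes 1761, while Vim was below the next library and ranked 5926. The genes at ranks 1 to 3 were Egr1, Fos (133-fold) and Dusp5 (113-fold), all 3 named after their values were seen. The plot of the distance of IDPN 2 from the other libraries places the keratins among all genes. Whether the immediate early genes and the keratins share a cause in this animal was not tested.

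**Figure D2:**
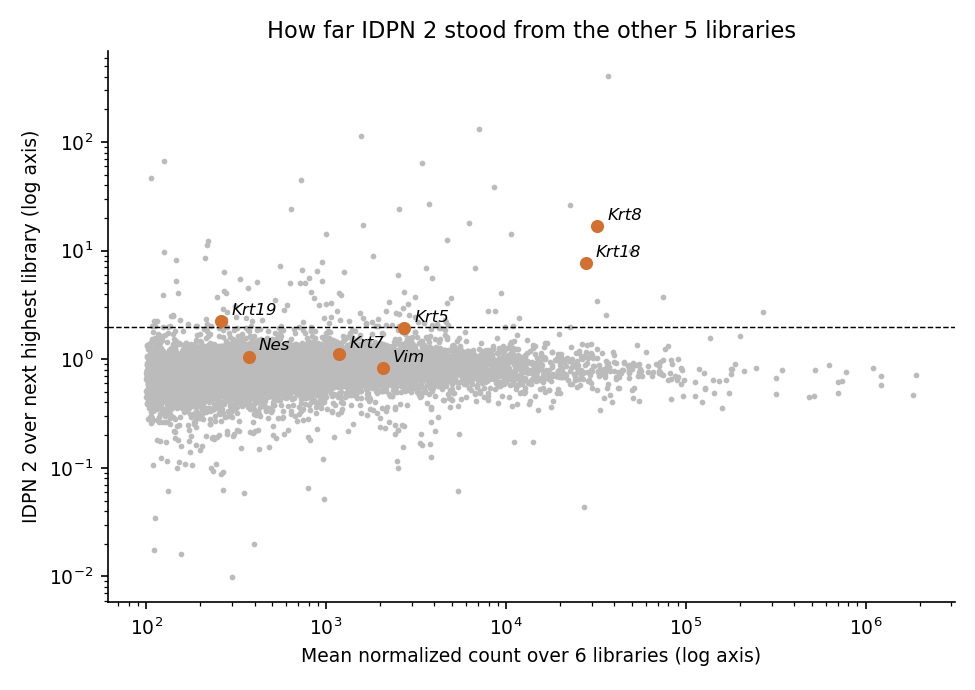
Each grey point is a gene with a mean of at least 100, placed by its mean over the 6 libraries (log axis) and by its level in IDPN 2 over the next highest library (log axis; genes at 0 in IDPN 2 are not drawn), with a dashed line at 2-fold. Krt8 (16.7-fold), Krt18 (7.72-fold) and Krt19 (2.24-fold) lay above the line, Krt5 (1.92-fold) just under it.

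Krt19, the smallest type I keratin, which lacks most of the tail domain, lies on chromosome 11 (GRCm38, 100140810 to 100148665, minus strand). It had 70.3, 142 and 213 normalized counts in Control and 271, 608 and 255 in IDPN, so that the groups did not overlap. Control 1 was lowest, at 0.496 of the next lowest library, and IDPN 2 was 2.24-fold above the next highest. Krt19 was thus among the genes that set Control 1 and IDPN 2 apart from the other libraries. The log2-Fold_Change was 1.41 (SE 0.39, DESeq2 Padj = 0.00752), with means of 142 ± 71.2 in Control and 378 ± 199.6 in IDPN (SD, n = 3). This was 1 call among the 7 members with a Padj (14.3%), beside 2.32% of all genes called higher. The call was lost without IDPN 2 (0.89, DESeq2 Padj = 0.230), without Control 1 (1.08, 0.0980) or without Control 2 (1.41, 0.0763), and it held without each of the other 3 libraries (DESeq2 Padj between 0.000664 and 0.0154) and with total-count scaling (1.54, 0.00892). The edgeR test gave an adjusted p of 0.119 for the same difference and called 0 of the 10 members, with 5 higher and 0 lower at an unadjusted p below 0.05. The 5 were Krt8, Krt18, Krt19, Krt5 and Des. Without IDPN 2 (chosen after seeing the data), their unadjusted edgeR p-values were 0.489, 0.424, 0.0425, 0.234 and 0.0982 in that order. The share of all genes below that unadjusted level was not counted, so the counts at that level, here and below, have no background.

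Krt7, the type II chain that pairs with Krt19 in many ductal and glandular epithelia, did not share the difference seen for Krt19. Its normalized counts were 1233, 1365 and 835 in Control and 1042, 1522 and 1100 in IDPN. The groups overlapped, with IDPN 2 above every Control animal and Control 3 below every IDPN animal. The log2-Fold_Change was 0.094 (SE 0.22, 95% interval −0.35 to 0.53, DESeq2 Padj = 0.903), and it was −0.095 without IDPN 2 and −0.089 without Control 3. The ratio of Krt7 to Krt19 per kilobase was 4.61, 2.53 and 1.03 in Control and 1.01, 0.658 and 1.14 in IDPN. Control 3 fell inside the IDPN range, and the log2 difference of −1.33 (Control 1.20 ± 1.09, IDPN −0.13 ± 0.41, SD, n = 3) did not pass (exact permutation p = 0.20, adjusted p = 0.60). Without Control 1 the difference was −0.83, the smallest of the 6 values with 1 library left out.

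Krt5, a type II keratin typical of basal cells of stratified epithelia, had 2473, 2262 and 1693 normalized counts in Control and 2418, 4849 and 2524 in IDPN. Only IDPN 2 stood clearly above the Control animals. The log2-Fold_Change was 0.61 (SE 0.25, DESeq2 Padj = 0.156), and 0.21 without IDPN 2 (DESeq2 Padj = 0.740). Scaling by total counts, which moved the median of all genes by 0.25, gave 0.84 (DESeq2 Padj = 0.0138), or 0.59 relative to that shift. Krt15, the type I keratin of basal and stem-like epithelial cells, had 1 count in IDPN 2 and 0 in the other 5 libraries. A count of 0 allows up to 3 counts, or 0.0692 to 0.0741 CPM in those 5 libraries. Krt14, the usual partner of Krt5, had 0 counts in all 6 libraries, and Trp63, which drives basal cell identity, had 1.00 to 8.28 normalized counts.

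Summed per kilobase, the simple epithelial keratins Krt7, Krt8, Krt18 and Krt19 reached 12170, 13338 and 8471 in Control and 10784, 156364 and 14949 in IDPN. The sum followed Krt8 and Krt18, and only IDPN 2 and IDPN 3 exceeded all Control animals. On the log2 scale it differed by 1.40 (exact permutation p = 0.40, adjusted p = 0.60), or by 0.19 without IDPN 2. The sum of Krt5 and Krt15 differed by 0.55 (p = 0.20, adjusted p = 0.60, exact permutation tests), or by 0.22 without IDPN 2. The ratio of type II to type I chains was 0.662, 0.575 and 0.742 in Control and 0.636, 1.07 and 0.604 in IDPN, a log2 difference of 0.18 (exact permutation p = 0.70, adjusted p = 0.70) that became −0.082 without IDPN 2. None of these differences passed the exact permutation test.

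**Figure D3:**
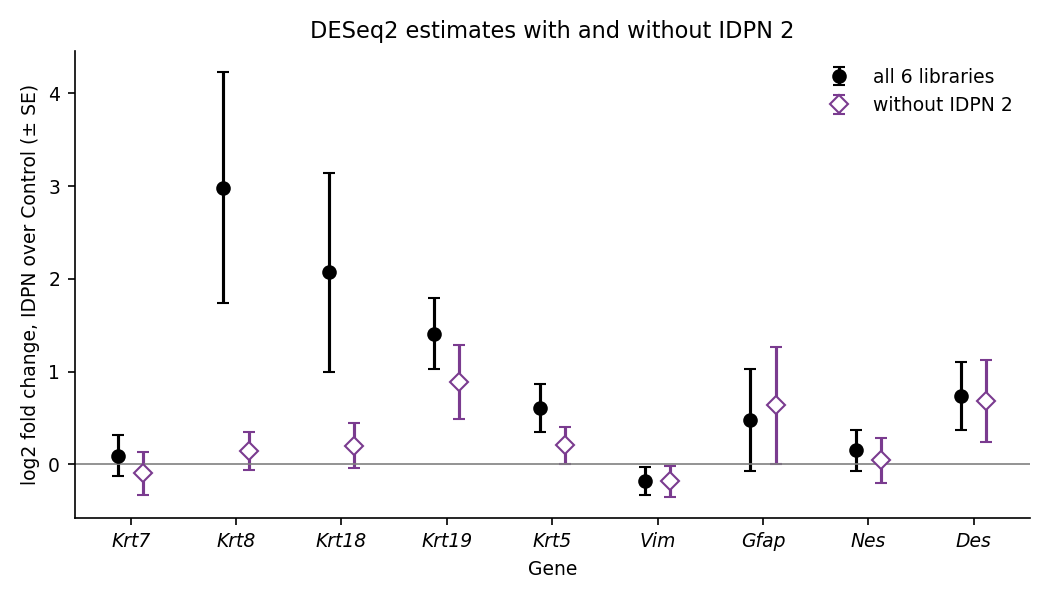
DESeq2 log2 fold changes (IDPN over Control, ± SE) of the 9 genes, fitted on all 6 libraries (black) and without IDPN 2 (open diamonds). Krt8 went from 2.98 to 0.14 and Krt18 from 2.07 to 0.20, while Vim, Gfap, Nes and Des moved by less than their SE.

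Vim encodes vimentin, the type III protein of mesenchymal cells that many supporting and glial cells also make (GRCm38, chromosome 2, 13573927 to 13582826, plus strand). Its normalized counts were 2150, 2335 and 2082 in Control and 2019, 1938 and 1839 in IDPN, and it varied least among the members. Every IDPN library was below every Control library, as for 11.4% of all tested genes, and Vim was the only one of the 7 members with a Padj for which this held. The log2-Fold_Change was −0.18 (SE 0.15, 95% interval −0.47 to 0.11, DESeq2 Padj = 0.615). With total-count scaling it was 0.079, which is −0.17 relative to the shift of all genes. Relative to the simple keratins per kilobase, Vim was at 0.0373, 0.0369 and 0.0518 in Control and 0.0395, 0.00261 and 0.0259 in IDPN. The low value in IDPN 2 carried most of the log2 difference of −1.58 (exact permutation p = 0.30, adjusted p = 0.60), which was −0.37 without that animal.

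**Figure D4:**
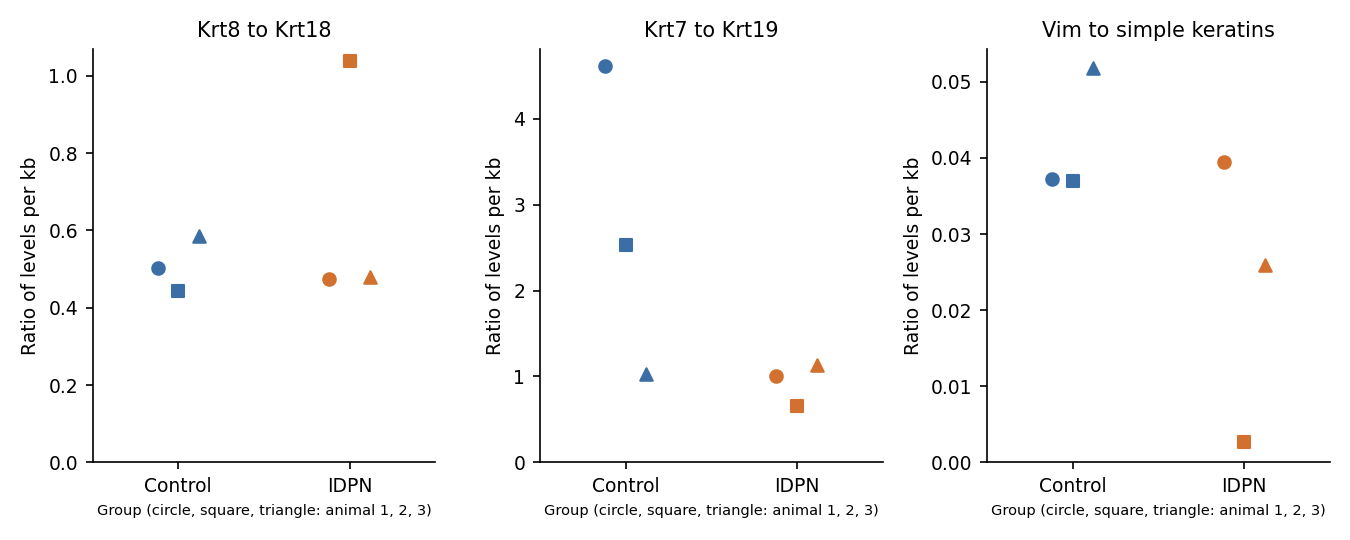
Ratios of levels per kilobase of exon in each library (linear axes from 0; circle, square and triangle are animals 1, 2 and 3 of a group) for Krt8 to Krt18, Krt7 to Krt19 and Vim to the sum of the simple keratins. IDPN 2 had the highest Krt8 to Krt18 ratio (1.04) and the lowest of the other ratios (0.658 and 0.00261), and Krt7 to Krt19 spread widely among Control animals (1.03 to 4.61).

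Des encodes desmin, the type III filament protein of muscle and pericytes. It had 37.6, 54.3 and 66.7 normalized counts in Control and 75.3, 96.4 and 95.2 in IDPN, with the groups apart. Including Krt19, 2 of 7 members with a Padj had every IDPN library above every Control library, beside 11.1% of all tested genes. The Des log2-Fold_Change of 0.74 (SE 0.37) did not pass (DESeq2 Padj = 0.272), and it was 0.55 without Control 1 and 0.68 without IDPN 2. Of 10 mural and smooth muscle markers, 0 were called by DESeq2 or edgeR, and 0 by either at an unadjusted p below 0.05. Their summed level was 8748 to 12685 in Control and 10497 to 12558 in IDPN, most of it Rgs5 (named after its value was seen). Myh11, a defining gene of smooth muscle, had at most 24.0. Skeletal muscle markers summed to 45.0 to 72.1 in Control and 39.2 to 41.1 in IDPN, with Tnnt3 (named after its value was seen) called lower at low counts, a call that 1 of the 6 fits with a library left out kept and edgeR did not make (adjusted p = 0.0822).

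Gfap, the type III protein of astrocytes that inner ear supporting cells and some Schwann cells also make, was near the lower limit of detection. Its estimated counts were 14, 16 and 45 in Control and 48, 27 and 42 in IDPN, and normalized counts were 17.0, 18.5 and 40.04 against 39.7, 27.1 and 39.2. Control 3 was as high as the IDPN animals, and the log2-Fold_Change of 0.48 had a wide error (SE 0.55, 95% interval −0.59 to 1.55, DESeq2 Padj = 0.752). Nes, which encodes nestin, had 315, 311 and 424 normalized counts in Control and 345, 449 and 377 in IDPN. The overlap was complete for Nes except for IDPN 2, and the log2-Fold_Change was 0.15 (SE 0.22, 95% interval −0.28 to 0.59, DESeq2 Padj = 0.815). With DESeq2, 0 members were called lower and 0 were lower at an unadjusted p below 0.05, against 3 higher at that level. The 3 were Krt19, Krt5 and Des, with unadjusted DESeq2 p-values of 0.0245, 0.304 and 0.123 without IDPN 2. How many of all genes fell below that unadjusted level was not counted. The median log2-Fold_Change of the 7 members with a Padj was 0.48, the value of Gfap, beside 0.015 over all 17650 genes. Without IDPN 2 the 7 estimates were 0.89 (Krt19), 0.68 (Des), 0.64 (Gfap), 0.21 (Krt5), 0.042 (Nes), −0.095 (Krt7) and −0.18 (Vim).

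Levels can be compared between genes per kilobase of exon in Control animals. Krt18 came first at 7400 ± 1988 normalized counts per kilobase (SD, n = 3), followed by Krt8 at 3687 ± 556, Krt5 at 975 ± 184, Vim at 462 ± 27.6, Krt7 at 162 ± 39.1, Krt19 at 76.4 ± 38.4, Nes at 54.6 ± 10.0, Des at 14.1 ± 3.89 and Gfap at 5.97 ± 3.06. Neighbouring ranges did not overlap from Krt18 down to Krt19, whereas Krt19 lay within its spread of Nes. The order of Krt5 and Vim depends on the transcript length taken, since with the principal coding transcript Vim was at 998. The Krt18 and Krt8 pair therefore led the members, with Krt5 as the next keratin.

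Most other keratins had few or no counts. Of 45 keratin genes beside the members, 25 had no count in any library and 5 had a mean of at least 10. Krt23, a type I keratin of simple epithelia, was the clearest difference among them. It had 621, 763 and 651 normalized counts in Control and 1701, 1880 and 1817 in IDPN, with IDPN 2 close to the other treated animals. Its log2-Fold_Change was 1.41 (SE 0.17, DESeq2 Padj = 7.55e-15), edgeR gave an adjusted p of 0.000766, and the call held without each library in turn. Krt80, a type II keratin with a low mean that was named after its values were seen, had 15.8, 26.5 and 13.3 in Control and 49.7, 108 and 81.2 in IDPN (log2-Fold_Change 2.11, SE 0.48, DESeq2 Padj = 0.000663). It was also called by edgeR (adjusted p = 0.0341) and without each library. Krt222, a keratin-related gene, was lower (316.5, 171 and 350.5 against 143, 134.5 and 132; log2-Fold_Change −1.03, DESeq2 Padj = 0.00936), a call that 3 of the 6 fits with a library left out kept and edgeR did not make (0.0778). Krt10 and Krt20, at 123 to 195 and 185 to 479 normalized counts, were not called.

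Among 7 other type III and IV filament genes, 2 were called lower and 0 higher by DESeq2, with 2 higher at an unadjusted p below 0.05 in DESeq2 and in edgeR. The 2 called lower, Nefl and Nefm, encode neurofilament subunits of neuronal axons. Nefl had 3213, 2952 and 3090 in Control and 1936, 2002 and 2192 in IDPN (log2-Fold_Change −0.59, SE 0.15, DESeq2 Padj = 0.00212). Nefm fell by 0.64 (SE 0.20, DESeq2 Padj = 0.0218), and edgeR gave adjusted p-values of 0.0350 and 0.0719 for them. These values lie close to the fold-change limit of 0.585 on the log2 scale, and 3 and 2 of the 6 fits with a library left out kept the calls. Under total-count scaling Nefl, Nefm and Krt222 kept their direction (−0.34, −0.42 and −0.81) and lost their calls. The lamins Lmna, Lmnb1 and Lmnb2, filaments of the nucleus, gave 0 calls in DESeq2 and edgeR, with 1 and 0 higher at an unadjusted p below 0.05. Lmna reached 5195 in IDPN 2 against 2348 to 3257 in the other libraries, and its log2-Fold_Change of 0.46 was 0.14 without IDPN 2 (DESeq2 Padj 0.271 and 0.834).

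Of the genes that tie filaments to junctions, 1 of 11 plakins and linkers and 1 of 13 desmosome and hemidesmosome genes were called higher, and 0 lower (0 at an unadjusted p below 0.05 in DESeq2 or edgeR). Pkp1, a desmosomal plakophilin, had 205, 149 and 149.5 in Control and 368, 237 and 347 in IDPN (log2-Fold_Change 0.92, SE 0.26, DESeq2 Padj = 0.0106; edgeR adjusted p = 0.0645), and 3 of 6 fits with a library left out kept it. Sfn, a 14-3-3 protein that binds keratins, named after its values were seen, had 10.9 to 15.1 in Control and 21.5, 133.5 and 22.4 in IDPN. Its call (log2-Fold_Change 2.15, DESeq2 Padj = 0.0375) was lost without IDPN 2 (DESeq2 Padj = 0.771). Dsp, which encodes desmoplakin, the link from keratin to the desmosome, was not called (log2-Fold_Change 0.50, DESeq2 Padj = 0.105), nor was Plec (−0.15, 0.745). Itga6, an integrin of hemidesmosomes, passed the p threshold (DESeq2 Padj = 0.0354) with a log2-Fold_Change of 0.50, under the fold limit.

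The list of 14 epithelial identity genes gave 0 calls in DESeq2 and in edgeR (2 and 3 higher at an unadjusted p below 0.05, 0 lower in either). Elf3, an epithelial ETS factor, had 411, 334 and 415 in Control and 450, 1554 and 490 in IDPN, so that IDPN 2 stood apart as it did for Krt8. Its log2-Fold_Change was 1.10 (DESeq2 Padj = 0.328), and 0.28 without IDPN 2 (DESeq2 Padj = 0.654). Epcam, an epithelial adhesion protein, had 33400 and 37836 in IDPN 1 and 3 and 84551 in IDPN 2, against 42733 to 62067 in Control (Padj = 0.922 in DESeq2). Without IDPN 2 its log2-Fold_Change was −0.64 (DESeq2 Padj = 0.0325), which met both limits of a call lower. The related lists as a whole held 93 genes, of which 50 had a Padj. Of these 50, DESeq2 called 4 higher and 3 lower, beside 2.32% and 3.42% of all genes with a Padj. The plot of the related genes shows them by list. The edgeR test called 2 higher and 1 lower, beside 1.02% of all its 16310 genes called higher and 2.19% lower.

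**Figure D5:**
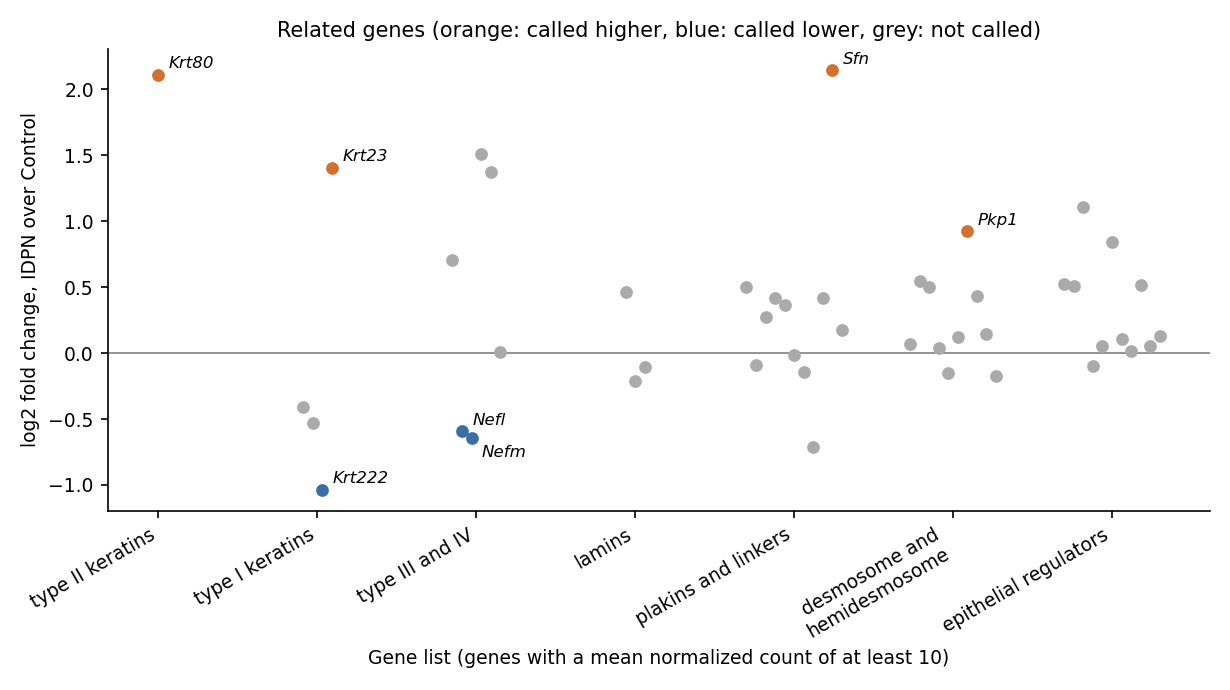
DESeq2 log2 fold changes (IDPN over Control) of the related genes whose mean was 10 or more, by list (orange called higher, blue called lower, grey not called). The calls were Krt80, Krt23, Sfn and Pkp1 higher and Krt222, Nefl and Nefm lower.

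Cell type markers moved beside these genes. Of 14 HC markers, 9 were called lower, Pou4f3 and Otof among them (log2-Fold_Change −1.001 and −0.75; DESeq2 Padj 9.34e-10 and 1.71e-05), and Myo7a was not (0.015); their sum was 62100 to 69041 in Control and 35213 to 38901 in IDPN. Supporting cell markers had 2 of 14 called lower (sum 461103 to 673883 in Control and 346309 to 421556 in IDPN), with Sox2, Sox9 and Hes1 not called. Sox9 was highest in IDPN 2, at 9464 against 4578 to 7731 elsewhere. Schwann cell markers had 1 of 13 higher (Sox10) and 1 lower (S100b), with Mbp and Pmp22 not called. Astroglial markers had 3 of 9 lower (Serpina3n, Gja1 and Fabp7), with Aqp4 and Aldh1l1 not called. Serpina3n (log2-Fold_Change −1.34, DESeq2 Padj = 2.00e-11, edgeR adjusted p = 0.00135) was called in all 6 fits with a library left out. Gja1 (−0.84, DESeq2 Padj = 0.0175, edgeR adjusted p = 0.0685) was called in 2 of them. Fabp7, whose groups overlapped, lost its call without IDPN 2 (DESeq2 Padj = 0.0584) and with edgeR (adjusted p = 0.157), and 2 of the 6 fits with a library left out kept it. In stroma (10 genes) 1 was higher, in endothelium (8) 1 lower, and in dark and transitional cells (9) 1 higher. The edgeR test called 8 HC markers, 1 astroglial and 1 endothelial marker lower and 1 Schwann cell and 1 dark and transitional cell marker higher. It called 0 supporting cell markers lower, 0 Schwann cell markers lower and 0 stroma markers higher, with 4, 2 and 2 at an unadjusted p below 0.05. Macrophage (10) and melanocyte (7) markers had 0 calls in DESeq2 and edgeR, with 3 and 4 higher by DESeq2 and 3 and 3 by edgeR at an unadjusted p below 0.05. The melanocyte sum was 6685 to 14843 in Control, lowest in Control 3, and 15009 to 22921 in IDPN. Most of it was Dct and Pmel (named after their values were seen), whose groups both overlapped. The part of these markers in the keratin values was not tested.

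Most markers of other epithelia that carry keratins had a mean below 10. Of 10 stratified epithelium markers, 3 had a mean of at least 10, with a sum of 190 to 256 in Control and 176 to 200 in IDPN, most of it Krt10. Krt14, Krtdap and Dsg3 had no count in any library, and Krt6a had at most 5.02 normalized counts, in IDPN 2. Of 7 middle ear mucosa markers, 1 had a mean of at least 10, with a sum of 43.6 to 53.4 in Control and 11.0 to 24.3 in IDPN, and in IDPN 2 it was lowest. Neither list had a call in DESeq2 or edgeR, and at an unadjusted p below 0.05 both tools gave 0 for stratified epithelium and 1 lower for middle ear mucosa.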

How the data were processed

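RNA from 3 Control and 3 IDPN animals, 1 library each, was copied from 6 to 11 ng of total RNA with an oligo-dT SMART-seq2 protocol without molecular identifiers, so floors cover counting error only. The authors mapped paired reads to GRCm38 with STAR 2.5.3a and estimated counts per gene with RSEM 2.3.0 (submitters' processing notes). The deposited values are these estimated counts, given as whole numbers without normalization. RSEM divides reads among genes of near-identical sequence, and the protocol does not mark strand. The batch field of the labels has 1 value for all 6 libraries.

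Counts were tested with the DESeq2 Wald test (1.42.0, R 4.3.3), size factors from the median of ratios and group as the only term, as the study's methods name DESeq2; called means Padj below 0.05 and a fold change above 1.5. The 95% intervals are the log2 estimate ± 1.96 SE of this fit, which includes the spread between animals. Size factors lay between 0.825 and 1.21. The edgeR quasi-likelihood test (4.0.16) was the first alternative. Levels and ratios per library used normalized counts per kilobase of exon union (GENCODE M21, GRCm38, a later release than the authors' annotation) and two-sided exact permutation tests, adjusted over 6 values by Benjamini-Hochberg. The union of Krt7 exons (7049 bases) is longer than its longest transcript (4094 bases). Close copies were sought with blastn 2.17.0+ (at least 90% identity over 300 bases). The code was tested on simulated counts, where the median error of the estimates was near 0 but both tests missed most changed genes with low counts, such as those of Gfap, so a missing call there carries little weight.

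The genes and lists (other keratins, type III and IV filaments, lamins, plakins and linkers, junction genes, epithelial regulators, and markers of HCs, supporting, Schwann, astroglial, stromal, mural, skeletal muscle, endothelial, macrophage, dark and transitional, melanocyte, stratified and middle ear cells) were chosen with earlier results of these data known. Besides the members, named genes were the called ones of each list with a mean of at least 100 (at most 4, lowest Padj) and the first 3 of each marker list, and not all of them are reported here. Of the listed symbols, Krt85, Eppk1 and Myo15a were not analysed here.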

Additional observations from a re-analysis of the deposited data

How the results depend on the processing

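The count of members called higher (1, Krt19) was 0 with edgeR, 0 when tested against a fold change of 1.5, 0 with edgeR without IDPN 2 (chosen after seeing the data), 2 with total-count scaling, and 0 to 1 with a library left out. Krt7 (0.094) reversed to −0.089 without Control 3 and −0.095 without IDPN 2 (range −0.095 to 0.23 with a library left out), or −0.084 with edgeR without IDPN 2, and Vim to 0.079 with total-count scaling, none of them past the threshold. Related genes called higher (4) were 2 with edgeR, 10 with total-count scaling, 1 against a fold change of 1.5, and 2 to 6 with a library left out; those called lower (3) were 1, 0, 0, and 0 to 3. The lowest counts with 1 library left out came without Control 2 (2 higher) and without Control 1 (0 lower). Total-count scaling moved the median of all genes by 0.25, and the other causes were not tested. Members called lower stayed at 0 in every alternative. The 6 levels and ratios, none past the test, had ranges of 0.19 to 2.12, 0.22 to 0.73, −0.082 to 0.33, −0.090 to 0.48, −1.91 to −0.83 and −2.33 to −0.37 with a library left out, for simple keratins, Krt5 with Krt15, type II to type I, Krt8 to Krt18, Krt7 to Krt19 and Vim to simple keratins; the value nearest 0 came without IDPN 2 for all but Krt7 to Krt19 (without Control 1), and without IDPN 2 the ratios of type II to type I and of Krt8 to Krt18 changed sign. No paired analysis was possible because the labels give no replicate numbers shared by the groups. With 3 animals a group, a difference confined to 1 animal cannot be told apart from variation between animals, and low counts limit Gfap, Des and Krt15.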
